A study of Mus musculus with 8 samples.

Results

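The genes that build elastic fibers were examined in RNA sequencing libraries of mouse lung. The set consisted of 10 listed genes, taken by symbol and matched to Ensembl identifiers with the GRCm38 annotation: Eln, Fbn1, Fbln5, Efemp2, Lox, Loxl1, Mfap4, Mfap5, Emilin1 and Ltbp4. They are 10 of the 52636 genes counted, and all 10 passed the filter on low counts that left 20546 genes for testing. Lung RNA came from male C57BL/6 mice, labelled wild type, in 8 libraries with 2 per group. Control mice were given PBS into the trachea. The COPD mice model was made with elastase from porcine pancreas (PPE), which digests elastic fibers, followed by lipopolysaccharide (LPS), by the same route. Mice of either kind ate the control diet or chow containing 2% TJ-41, the herbal medicine hochuekkito. The diets began when mice were 8 weeks old, the PPE dose or its PBS control followed at 10 weeks, and dosing with LPS or its PBS control started at 12 weeks. The study examined mice in an acute phase at 14 weeks and a chronic phase at 17 weeks, and the phase of the sequenced lungs was not given in the sources used here. Nor was the number of mice behind a library, so the p-values measure the spread between libraries, which may be technical.

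An elastic fiber is a core of crosslinked elastin laid down on a scaffold of microfibrils. Fibroblasts and smooth muscle cells secrete tropoelastin, the soluble product of Eln. Fibulins bring tropoelastin and the crosslinking enzymes to the fibrillin microfibrils, and lysyl oxidases then join the tropoelastin molecules into an insoluble, stretchable polymer. In the lung these fibers lie in the alveolar entrance rings, the airway wall, the vessels and the pleura. They give the lung its recoil, and their destruction is a feature of emphysema. Most elastin is made during development, and the protein turns over very slowly. Transcript levels describe what cells express at the time of sampling and not the amount of fiber present.

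Promoter entries in the RefSeq table (GRCm38.p6) were used for 5 of the 10 genes, with 10 entries in all: Fbn1, Fbln5, Efemp2, Emilin1 and Ltbp4. Any entry of Lox was left out. The 250 bases upstream of a start site are shown for Fbln5 and Efemp2, the 2 fibulins that deliver tropoelastin and lysyl oxidase, since they serve the same step of assembly and both have an entry. Fbln5 has 2 entries and Efemp2 has 3, and the window shown is the 1 that lies outside the annotated gene. The window of Fbln5 is chr12:101819120-101819369 on the minus strand and that of Efemp2 is chr19:5473696-5473945 on the plus strand. Capitals mark GC boxes, the letters GGGCGG on either strand.
Fbln5: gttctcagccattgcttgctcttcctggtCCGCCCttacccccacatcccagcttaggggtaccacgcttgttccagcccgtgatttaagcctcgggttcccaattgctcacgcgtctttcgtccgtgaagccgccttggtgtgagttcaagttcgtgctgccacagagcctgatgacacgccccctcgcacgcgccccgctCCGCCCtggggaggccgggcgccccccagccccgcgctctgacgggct
Efemp2: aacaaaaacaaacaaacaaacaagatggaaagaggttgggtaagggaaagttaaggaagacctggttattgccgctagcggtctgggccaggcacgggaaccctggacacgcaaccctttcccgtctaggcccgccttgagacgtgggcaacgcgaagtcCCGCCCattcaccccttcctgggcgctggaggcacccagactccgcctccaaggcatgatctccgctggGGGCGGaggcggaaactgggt
Both windows held 2 GC boxes, and 32.7% of the 32851 promoter entries held at least 1. The other window of Fbln5, chr12:101818485-101818734, held 0 and was 49.6% G or C, and the other windows of Efemp2 held 5 each at 75.6% and 78.8%. The window shown of Fbln5 was 65.2% G or C and that of Efemp2 59.2%, against a median of 52.4% over all entries. The AP-1 site TGANTCA (6.75% of all entries), the TATA box TATAAA (12.4%) and the E-box CACGTG (6.02%) were searched on both strands, and these letters were in none of the 10 entries.

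The libraries held 18767295 to 20888042 counts, and 3 counts corresponded to 0.153 to 0.162 CPM, counts per 1000000 library counts. Levels are given as CPM after TMM scaling, and a log2 fold change is from edgeR's quasi-likelihood fit over all 8 libraries. A gene was called at a Benjamini-Hochberg adjusted p under 0.05 together with a log2 fold change beyond 1, the thresholds the study names. The 2 libraries of COPD mice on the control diet stood apart from each other. The SD of the log2 difference between replicates over all genes was 0.869 there and 0.440 to 0.520 in the other groups. These libraries also leaned in opposite directions with the GC content of genes. The correlation across genes was -0.383 in replicate 1 and 0.337 in replicate 2. The largest of the 8 libraries was in another group, at -0.424 in control mice on TJ-41, replicate 2. For Eln, Mfap5, Efemp2 and the gene lists, the comparison over both diets is also given without each of the COPD control-diet libraries. For the lists that choice was made after seeing the data.

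Per kilobase of exon, Mfap4 was the most abundant transcript of the set and Emilin1 the least. Mfap4, a glycoprotein of microfibrils and fiber surfaces, averaged 182 ± 48.1 CPM per kilobase (SD, n = 8 libraries). Ltbp4, a latent TGF-beta binding protein that helps fibulin-5 deposit elastin, followed at 73.4 ± 18.7 CPM per kilobase. The range of Mfap4 over the libraries, 118 to 257, lay wholly above that of Ltbp4, 44.7 to 93.0, which lay wholly above that of Fbln5, 20.1 to 30.4 CPM per kilobase. From there the ranges of neighbouring genes overlapped. The mean levels were 25.3 for Fbln5, 23.5 for Loxl1, 21.6 for Eln, 16.0 for Mfap5, 14.2 for Fbn1, 12.1 for Lox, 10.95 for Efemp2 and 10.5 CPM per kilobase for Emilin1. Transcripts of every component in the set were thus present in each library. The coefficient of variation over the 8 libraries had a median of 27.8% for the 10 genes, and of 15.7% for the 14049 genes that averaged at least 5 CPM.

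**Figure D1:**
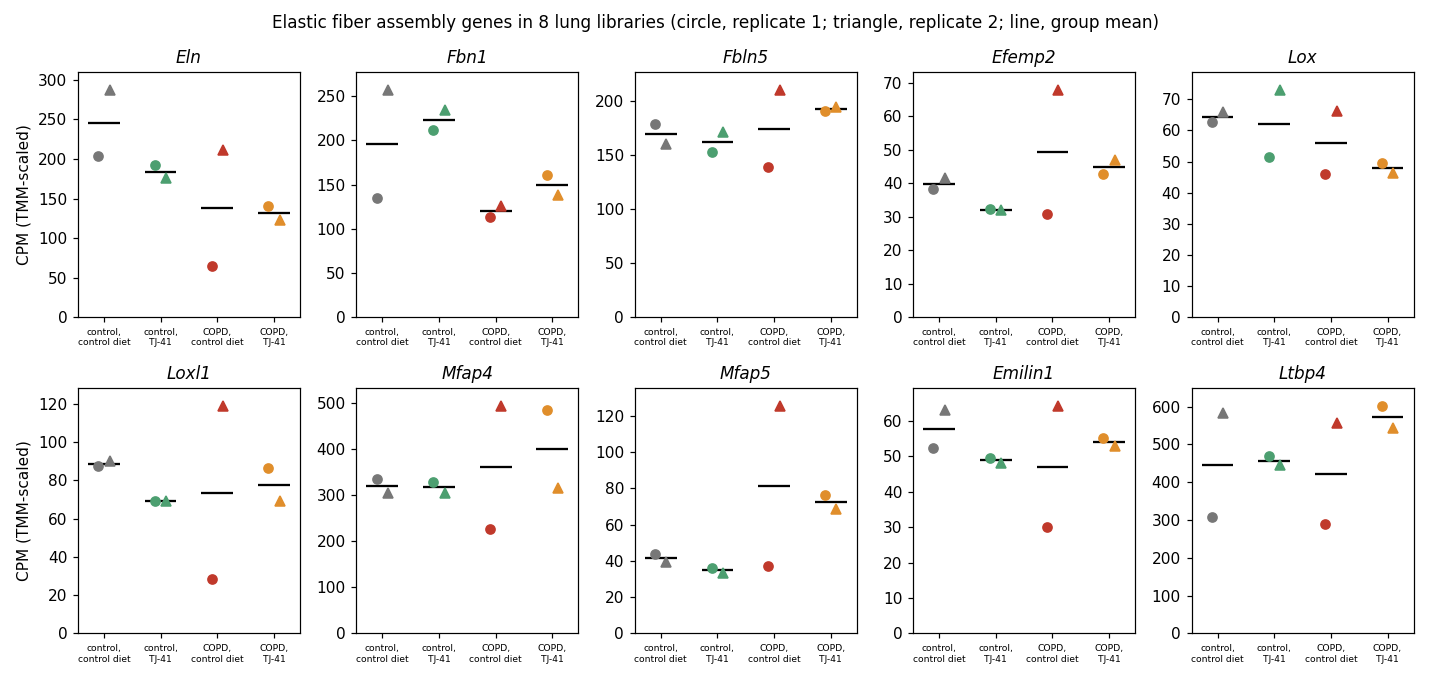
CPM after TMM scaling (vertical axes, from 0) of the 10 genes in each of the 8 libraries, by group. Circles are replicate 1, triangles replicate 2 and lines the group mean; in COPD mice on the control diet the 2 libraries lie far apart for most genes, as for Loxl1 at 28.4 and 119 CPM.

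Eln encodes tropoelastin, the core of the fiber. It lies on chromosome 5 at 134702593 to 134747323 (minus strand, ENSMUSG00000029675). In control mice it stood at 204 and 287 CPM on the control diet and at 192 and 176 CPM on TJ-41. In the COPD mice model it stood at 64.8 and 212 CPM on the control diet and at 141 and 123 CPM on TJ-41. Of the 4 COPD libraries, 3 lay below every control library, and replicate 2 on the control diet did not. The mean was 215 ± 49.5 CPM in control mice and 135 ± 60.5 CPM in the COPD mice model (SD, n = 4). Over both diets the log2 fold change was -0.66 (SE 0.31), 0.635-fold with a 95% interval of 0.392 to 1.03, and the adjusted p was 0.509 by edgeR's quasi-likelihood test. The adjusted p did not pass the threshold. Without COPD control-diet replicate 2, the log2 fold change over both diets was -1.20 (adjusted p = 0.00147, edgeR), and without replicate 1 it was -0.35 (adjusted p = 0.0901, edgeR). In bulk lung RNA, fewer cells that make a transcript and less of it per cell cannot be told apart.

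Fbn1 encodes fibrillin-1, the main protein of the microfibril scaffold (chromosome 2, 125300594 to 125507993, minus strand, ENSMUSG00000027204). Its levels were 135 and 257 CPM in control mice on the control diet and 212 and 234 CPM on TJ-41. In the COPD mice model they were 114 and 126 CPM on the control diet and 161 and 138 CPM on TJ-41. Within each diet both COPD libraries were below both control libraries, and over the diets the groups overlapped through 1 control library at 135 CPM. The mean was 209 ± 53.0 CPM in control mice and 135 ± 19.95 CPM in the COPD mice model (SD, n = 4). Over both diets Fbn1 had a log2 fold change of -0.64 (SE 0.19), 0.640-fold with an interval of 0.474 to 0.863 (adjusted p = 0.251 by edgeR's quasi-likelihood test). It kept a negative sign under every setting tried for this comparison, from -0.84 to -0.37. The unadjusted interval excluded equality, and the adjusted p did not pass. Part of the annotated exons, 2442 bases, overlaps Gm9913 on the opposite strand. Gm9913 had at most 8 counts in a library, and the strand setting of the counting was not given in the sources used here.

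Mfap5 encodes a small microfibril-associated glycoprotein (MAGP-2) that binds fibrillin (chromosome 6, 122505845 to 122529290, plus strand, ENSMUSG00000030116). It went the other way from Eln and Fbn1. Its levels were 43.7 and 39.6 CPM in control mice on the control diet, and 36.1 and 33.3 CPM on TJ-41. The COPD mice model had 37.4 and 125 CPM on the control diet and 76.1 and 68.4 CPM on TJ-41. Of its 4 COPD libraries, 3 were above every control library, and replicate 1 on the control diet lay within the control range. The mean was 38.2 ± 4.50 CPM in control mice and 76.7 ± 36.3 CPM in the COPD mice model (SD, n = 4). Mfap5 had the highest log2 fold change of the set over both diets, 1.01 (SE 0.30), 2.01-fold with an interval of 1.25 to 3.24. The adjusted p was 0.259 by edgeR's quasi-likelihood test, so Mfap5 was not called. DESeq2 called it over both diets (log2 fold change 1.01, adjusted p = 0.0200), and so did edgeR's exact test (1.01, adjusted p = 0.0469). These tools called 249 and 359 of all 20546 genes. The log2 fold change of Mfap5 was 1.32 without COPD control-diet replicate 1 and 0.46 without replicate 2 of that group. The adjusted p over all settings of this comparison ran from 6.3e-05 to 0.786.

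The other scaffold genes had intervals that spanned equality. Mfap4 (chromosome 11, 61485431 to 61488900, plus strand) stood at 335, 305, 329 and 305 CPM in the 4 control libraries. In the COPD mice model it stood at 228 and 493 CPM on the control diet and at 486 and 316 CPM on TJ-41. The control libraries were thus close to each other, and the COPD libraries lay on both sides of them. Ltbp4 (chromosome 7, 27305136 to 27337692, minus strand) was at 308 and 582 CPM in control mice on the control diet and at 470 and 444 CPM on TJ-41. The COPD mice model had 289 and 556 CPM on the control diet and 601 and 543 CPM on TJ-41. Emilin1 (chromosome 5, 30913402 to 30921277, plus strand), a glycoprotein at the interface of elastin and microfibrils, was at 48.1 to 63.0 CPM in control mice and at 30.04, 64.1, 55.2 and 52.9 CPM in the COPD libraries. For all 3 genes the lowest of the 8 libraries was replicate 1 of COPD mice on the control diet. Over both diets the fold was 1.19 for Mfap4 (interval 0.824 to 1.73), 1.09 for Ltbp4 (0.744 to 1.60) and 0.950 for Emilin1 (0.685 to 1.32), with adjusted p-values of 0.710, 0.865 and 0.909 by edgeR's quasi-likelihood test. The sign for Ltbp4, Emilin1 and Mfap4 turned when 1 library was left out, as given with the processing settings.

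Fbln5 varied least of the set, with a coefficient of variation of 13.5% over the 8 libraries. It encodes fibulin-5, which binds tropoelastin and cell surface integrins (chromosome 12, 101746565 to 101819055, minus strand). Its levels were 179 and 161 CPM in control mice on the control diet, 153 and 171 CPM on TJ-41, 139 and 210 CPM in COPD mice on the control diet and 191 and 195 CPM on TJ-41. The 2 TJ-41 COPD libraries exceeded all 4 control libraries, and the control-diet COPD libraries lay on either side of them. Its fold over both diets was 1.11 (interval 0.879 to 1.39, adjusted p = 0.726 by edgeR's quasi-likelihood test), the narrowest interval of the 10 genes on the log2 scale (SE 0.15). Efemp2 encodes fibulin-4, which tethers lysyl oxidase to tropoelastin (chromosome 19, 5473954 to 5482517, plus strand). It stood at 38.1, 41.5, 32.3 and 31.9 CPM in the control libraries, and at 30.7, 67.8, 42.8 and 46.8 CPM in the COPD libraries. As with Mfap5, 3 COPD libraries were above the control range and replicate 1 on the control diet was not, since it lay below it. The fold of Efemp2 was 1.31 (interval 0.938 to 1.84, adjusted p = 0.567 by edgeR's quasi-likelihood test). Its log2 fold change over both diets was 0.39 with all libraries, 0.63 without COPD control-diet replicate 1 (adjusted p = 0.00296, edgeR) and 0.061 without replicate 2 (adjusted p = 0.882, edgeR). Its exons share 173 bases with Mus81 on the opposite strand.

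Neither crosslinking enzyme passed the threshold. Lox encodes lysyl oxidase, the enzyme that oxidizes lysines of elastin and collagen. It stood at 62.6 and 65.9 CPM in control mice on the control diet and at 51.4 and 73.0 CPM on TJ-41. In the COPD mice model Lox was at 46.0 and 66.1 CPM on the control diet and at 49.7 and 46.2 CPM on TJ-41. Of the 4 COPD libraries, 3 were below the control range. The fold of Lox over both diets was 0.821 (interval 0.641 to 1.05, adjusted p = 0.572 by edgeR's quasi-likelihood test). Loxl1 encodes the lysyl oxidase relative directed to elastic fibers by fibulin-5 (chromosome 9, 58287738 to 58313186, minus strand). Its libraries were at 87.3 and 90.0 CPM in control mice on the control diet, 69.2 and 69.4 CPM on TJ-41, 28.4 and 119 CPM in COPD mice on the control diet and 86.2 and 69.3 CPM on TJ-41. The lowest and the highest of the 8 values of Loxl1 were thus the 2 replicates of the same group. Its fold over both diets was 0.965 with the widest interval of the set on the log2 scale (SE 0.35), 0.562 to 1.66 (adjusted p = 0.963, edgeR).

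**Figure D2:**
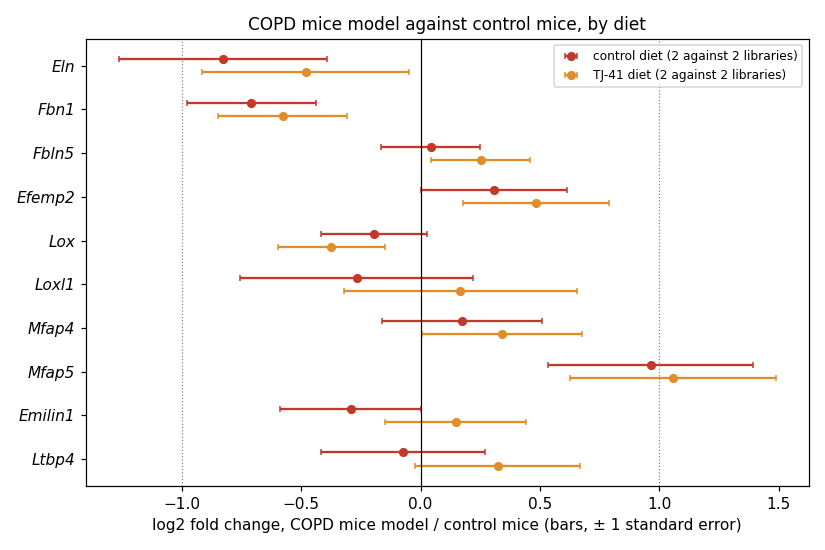
Log2 fold change of the COPD mice model over control mice (horizontal axis) for the 10 genes on the control diet (red) and on TJ-41 (orange), 2 against 2 libraries each. Bars are 1 standard error to either side and dotted lines mark a log2 fold change of -1 and 1; Eln and Fbn1 lie left of 0 and Mfap5 near 1 on both diets.

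The same contrast was read on each diet, and these comparisons share no library. On the control diet 0 of the 10 genes were called by edgeR's quasi-likelihood test, by DESeq2 or by edgeR's exact test. Of all genes tested, the quasi-likelihood test called 0.122%, DESeq2 174 and the exact test 210. A single gene, Fbn1 (log2 fold change -0.71, adjusted p = 0.559, edgeR), had an unadjusted p under 0.05, as had 7.70% of all genes. Fbn1 was also the 1 gene whose groups did not overlap, against 27.6% of all genes. On TJ-41 each of these tools called 0 of the 10 genes. Of all genes, they called 0.0779%, 125 and 137 in turn. Mfap5 (log2 fold change 1.06) was the 1 gene with an unadjusted p under 0.05 by edgeR's quasi-likelihood test, beside 6.56% of all genes. When only the TJ-41 libraries were fitted, 7 of the 10 genes had an unadjusted p under 0.05 and Mfap5 was called. That fit called 248 of 19809 genes, and its share of all genes under 0.05 was not computed. Fitted alone, the control-diet libraries gave 0 of the 10 genes under 0.05 and 19 of 19855 genes called. Groups did not overlap for 8 genes on TJ-41, 5 with higher and 3 with lower values in COPD mice, and this held for 56.5% of all genes there. The 3 lower genes were Eln, Fbn1 and Lox.

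The control-diet contrast depended on 1 library at a time. The log2 fold change on the control diet was -0.83 for Eln, 0.96 for Mfap5, 0.31 for Efemp2, -0.29 for Emilin1, -0.27 for Loxl1, -0.20 for Lox, 0.17 for Mfap4, -0.07 for Ltbp4 and 0.04 for Fbln5. On TJ-41 it was -0.48 for Eln, -0.58 for Fbn1, -0.37 for Lox, 0.48 for Efemp2, 0.34 for Mfap4, 0.32 for Ltbp4, 0.25 for Fbln5, 0.17 for Loxl1 and 0.15 for Emilin1. Over all settings tried, the TJ-41 value ran from -0.60 to -0.10 for Lox, 0.0024 to 0.62 for Mfap4 and 0.030 to 0.40 for Ltbp4. It ran from -0.67 to -0.38 for Eln, -0.69 to -0.47 for Fbn1 and 0.98 to 1.14 for Mfap5. The sign was the same on both diets for 7 of the 10 genes, and for 61.4% of all genes. The median of the 10 genes was -0.14 on the control diet and 0.21 on TJ-41, with medians over all genes of 0.01 and 0.00. Without COPD control-diet replicate 1, 8 of the 10 genes had a positive log2 fold change on the control diet. Mfap5 was then at 1.58 and Eln at -0.22. Without replicate 2 all 10 were negative, with Eln at -1.92 and Loxl1 at -1.64.

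Over both diets, the COPD mice model was higher for 5 genes and lower for 5. No gene was called by edgeR's quasi-likelihood test (0 of 10, beside 0.443% of all genes). Mfap5 was called by DESeq2 and by the exact test, 1 of 10 each, beside 249 and 359 of all 20546 genes. Fbn1 and Mfap5, 2 of the 10, had an unadjusted p under 0.05, beside 10.4% of all genes. The 4 control and 4 COPD libraries overlapped for each of the 10 genes, where 6.78% of all genes did not overlap. The median log2 fold change of the set was 0.04, and that of all genes was 0.00. Left out after seeing the data, COPD control-diet replicate 1 gave 7 higher and 3 lower genes with a median of 0.29, and replicate 2 gave 2 higher and 8 lower with a median of -0.27. The genes with an unadjusted p under 0.05 then numbered 7 and 6, beside 36.2% and 12.5% of all genes.

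Replicate 2 of COPD mice on the control diet exceeded replicate 1 for all 10 genes, where 51.4% of all genes did so. The median log2 difference of the 10 genes was 1.10. It was 2.06 for Loxl1, 1.74 for Mfap5, 1.71 for Eln, 1.14 for Efemp2, 1.11 for Mfap4 and 1.09 for Emilin1. It was smaller for Ltbp4 at 0.94, Fbln5 at 0.60, Lox at 0.52 and Fbn1 at 0.14. The core, scaffold and crosslinking genes thus differed in the same direction between 2 libraries of 1 group and for 9 of the 10, all but Fbn1, by more than the log2 fold change of the COPD mice model over both diets. In the other groups the median difference between replicates ran from -0.15 to 0.10. With gene length and GC content corrected for, all 10 genes were still higher in replicate 2, with a median of 0.85.

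**Figure D3:**
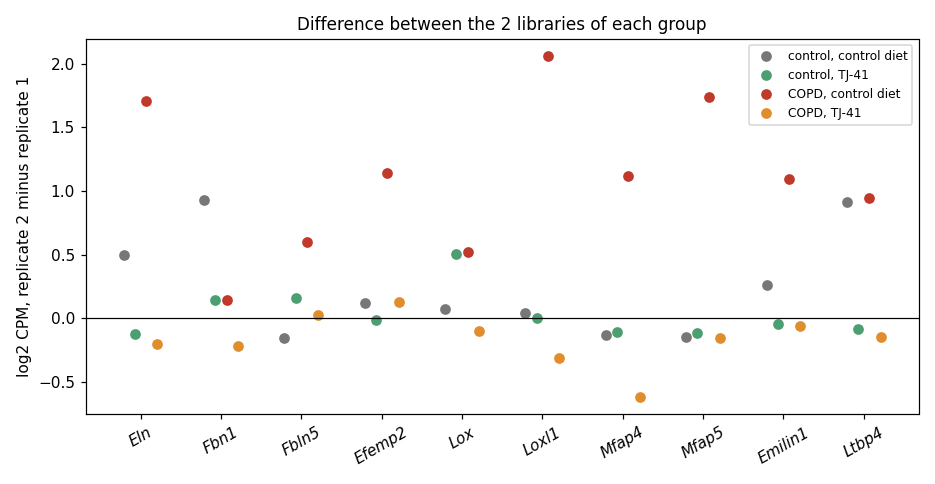
Log2 CPM of replicate 2 minus that of replicate 1 (vertical axis) for each of the 10 genes in each group. The points of COPD mice on the control diet (red) all lie above 0, up to 2.06 for Loxl1, while those of the other groups run from -0.62 for Mfap4 in COPD mice on TJ-41 to 0.93 for Fbn1 in control mice on the control diet.

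Marker lists of several cell types differed between these same 2 libraries. The summed level of the 10 genes was 1007 CPM in replicate 1 and 2039 CPM in replicate 2, the lowest and the highest of the 8 libraries, and 1444 to 1892 CPM in the other 6. Smooth muscle markers were higher in replicate 2 for 9 of 10 genes (527 and 927 CPM in sum), fibroblast markers for 10 of 15 (5171 and 6992 CPM) and mesothelial markers for 7 of 7 (165 and 366 CPM). Alveolar epithelial markers were higher for 9 of 11 tested (22197 and 40397 CPM in sum). Leukocyte markers were lower in replicate 2 for 9 of 11 tested, with 819 and 305 CPM in sum. Endothelial markers were higher for 4 of 10 and lower for 6 (3586 and 3761 CPM in sum), with a median log2 difference of -0.02. The part of these cells in the difference between the libraries was not tested. No marker of these 6 lists was at 0 in every library.

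Ratios within a library do not depend on how the library was scaled. Among the 45 pairs of the 10 genes, the ratio of 1 gene to the other separated the 4 control from the 4 COPD libraries without overlap in 19 pairs, or 42.2%, where 7.79% of all pairs of genes that averaged at least 5 CPM did so. Eln or Mfap5 was in 14 of these 19 pairs, and pairs that share a gene are not independent. Mfap5 separated the groups in 8 of its 9 pairs and Eln in 7 of 9. Efemp2 did so in 5 pairs, and each other gene in 2 or 3. Left out after seeing the data, COPD control-diet replicate 1 gave 22 such pairs of 45 beside 19.7% of all pairs, and replicate 2 gave 21 beside 11.3%.

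The pair of Eln and Mfap5 was picked after the values were seen and is given as a description with no test. The ratio of Eln to Mfap5 was 4.66 and 7.26 in control mice on the control diet and 5.32 and 5.30 on TJ-41. In the COPD mice model it was 1.73 and 1.69 on the control diet and 1.85 and 1.80 on TJ-41. The 2 COPD control-diet libraries, in which both genes differed more than 3-fold, had nearly equal ratios. The median ratio was 5.31 in control mice and 1.76 in COPD mice. Corrected for gene length and GC content, the ratio of Mfap5 to Eln was 0.157 to 0.198 in control mice and 0.476 to 0.634 in COPD mice, so the groups stayed apart. The ratio of Fbn1 to Mfap5 was also separate, at 3.08 to 7.03 in control mice and 1.00 to 3.05 in COPD mice.

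**Figure D4:**
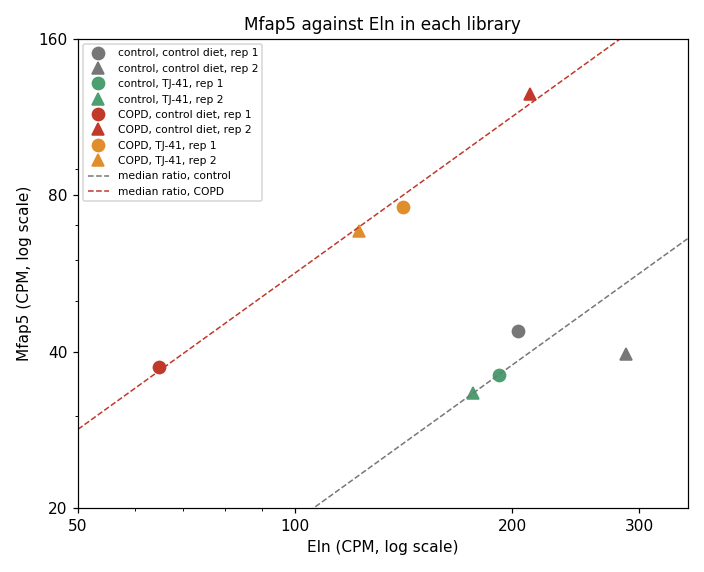
Mfap5 against Eln in each of the 8 libraries, both in CPM on log axes, with dashed lines at the median ratio of each model. The 4 COPD libraries lie along 1 line, at 1.69 to 1.85 Eln per Mfap5, although their levels spread widely, and the 4 control libraries lie at 4.66 to 7.26.

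On TJ-41 none of the 10 genes passed the threshold in either model. In control mice 0 of the 10 genes were called by edgeR's quasi-likelihood test, DESeq2 or edgeR's exact test, and 0 had an unadjusted p under 0.05, beside 0% and 1.64% of all genes. On TJ-41, 2 genes were higher and 8 lower, from -0.41 for Eln to 0.19 for Fbn1 on the log2 scale. The groups did not overlap for 5 genes, all lower on TJ-41 (Eln, Efemp2, Loxl1, Mfap5 and Emilin1), where 38.2% of all genes did not overlap. For Eln the fold was 0.751, and its interval of 0.381 to 1.48 leaves room for a difference in either direction.

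In the COPD mice model 0 of the 10 genes were called on TJ-41 against the control diet by the same 3 tools, and 0 had an unadjusted p under 0.05, beside 0.00487% and 4.10% of all genes. On TJ-41, 6 genes were higher and 4 lower, from -0.23 for Lox to 0.44 for Ltbp4. Fbn1 was the 1 gene without overlap, higher on TJ-41 (fold 1.25, interval 0.816 to 1.90), where 29.0% of all genes did not overlap. Eln had a fold of 0.955 (interval 0.484 to 1.88) and Mfap5 of 0.889 (0.458 to 1.72). Without COPD control-diet replicate 2, the log2 fold change of Loxl1 on TJ-41 was 1.45. Without replicate 1 it was -0.61. The difference of the TJ-41 effect, COPD mice minus control mice, was called for 0 of the 10 genes by edgeR's quasi-likelihood test and by DESeq2, and 0 had an unadjusted p under 0.05, beside 0% and 3.27% of all genes. Its log2 values ran from -0.18 for Lox to 0.44 for Emilin1.

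A further list of 26 genes of elastic fibers and microfibrils was read in the same fit over both diets, and 25 were tested. Of these, 12 had a higher and 13 a lower mean in the COPD mice, with a median log2 fold change of -0.01. By edgeR's quasi-likelihood test 0 of them were called. DESeq2 and the exact test each called 2, Ltbp2 higher and Fbn2 lower, beside 249 and 359 of all 20546 genes. An unadjusted p under 0.05 was found for 4 of the 25, Ltbp2 and Mmrn2 higher and Fbn2 and Efemp1 lower, beside 10.4% of all genes. Without COPD control-diet replicate 1, 14 were higher with a median of 0.08, and without replicate 2, 9 were higher with a median of -0.20. Ltbp2, a microfibril protein that binds fibulin-5, stood at 63.2, 111, 89.7 and 88.1 CPM in the control libraries and at 104, 333, 203 and 176 CPM in the COPD libraries. Ltbp2 was higher in the COPD mice model by 1.21 (SE 0.33, adjusted p = 0.196, edgeR). Fbn2, the fibrillin typical of development, had 11 to 36 counts in the control libraries and 2 to 8 in the COPD libraries, with a log2 fold change of -2.35 (SE 0.50, adjusted p = 0.106, edgeR). These counts are near the floor of 3 counts, and only a coarse difference can be read from them. Efemp1, fibulin-3, had a log2 fold change of -0.32 and Mmrn2, a multimerin of endothelial matrix, of 0.40, with adjusted p-values of 0.358 and 0.165 (edgeR).

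Of 13 listed elastolytic proteases, the genes that degrade elastin, 10 were tested, and 9 of these had a higher mean in the COPD mice model over both diets, where 49.8% of all genes did, with a median log2 fold change of 0.45 beside 0.00 for all genes. None passed the threshold by edgeR's quasi-likelihood test (0 called, 5 with an unadjusted p under 0.05, beside 10.4% of all genes). DESeq2 and the exact test called 2, Mmp12 and Ctsk, beside 249 and 359 of all 20546 genes. Mmp12, the macrophage elastase, stood at 7.58, 8.515, 10.04 and 6.65 CPM in the control libraries and at 13.6, 26.3, 13.04 and 15.6 CPM in the COPD libraries (log2 fold change 1.04, SE 0.24, adjusted p = 0.125, edgeR). Ctsk, cathepsin K, was at 21.7 to 33.9 CPM and at 36.2 to 77.3 CPM (1.10, SE 0.24, adjusted p = 0.118, edgeR). The groups did not overlap for either gene. The genes of this list, of the leukocyte markers and of the protease inhibitors are named because their unadjusted p was under 0.05, a choice made after the values were seen. The others at that level were Cela1 (0.85), Mmp2 (0.74) and the cathepsin gene Ctss (0.55). With COPD control-diet replicate 1 left out, 9 of 10 were higher with a median of 0.55. Without replicate 2, 9 of 10 were higher with a median of 0.22. Leukocytes make several of these enzymes, and of 11 leukocyte markers tested 4 were higher and 7 lower over both diets, with a summed level of 651 to 708 CPM in control mice and of 305 to 819 CPM in the COPD mice model. Markers with an unadjusted p under 0.05 included Cd68 (0.68), a marker of macrophages, and the T cell gene Cd3e (0.45), both higher, and Siglecf (-1.19), a marker of alveolar macrophages and eosinophils, which was lower. By DESeq2 and the exact test Siglecf was called lower, beside 249 and 359 of all 20546 genes. The quasi-likelihood test of edgeR called 0 leukocyte markers. Without replicate 1, 12 leukocyte markers passed the filter, 5 of them higher, with a median of -0.76. Without replicate 2, 8 of 12 were higher with a median of 0.15. The part of leukocytes in the levels of the proteases was not tested.

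Of 15 listed protease inhibitors 9 were tested and 8 had a higher mean, with a median of 0.31, and 0 were called by edgeR's quasi-likelihood test, DESeq2 or the exact test. An unadjusted p under 0.05 was found for 4, beside 10.4% of all genes. These were Slpi (0.92), a secreted inhibitor of neutrophil elastase, Cst3 (0.61), Serpine2 (0.49) and Timp3 (0.31). With COPD control-diet replicate 1 left out, 14 passed the filter, 11 of them higher, with a median of 0.38. Without replicate 2, 8 of 14 were higher with a median of 0.02. Of 17 genes of TGF-beta ligands and response, all tested, 10 were higher and 7 lower with a median of 0.03. The 3 tools called 0 of them. Smad3 (-0.31) was the 1 gene with an unadjusted p under 0.05, beside 10.4% of all genes. Without replicate 1, 11 were higher with a median of 0.04, and without replicate 2, 5 were higher with a median of -0.05.

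**Figure D5:**
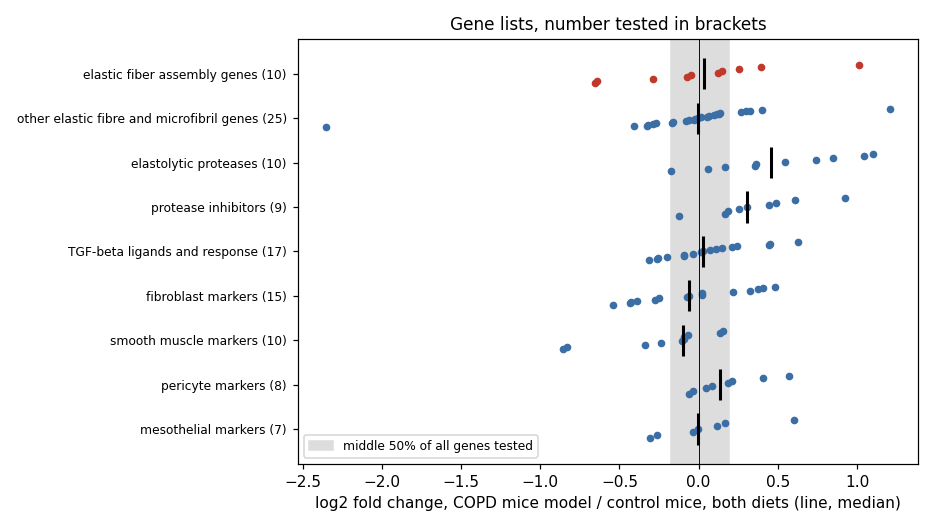
Log2 fold change of the COPD mice model over control mice with both diets (horizontal axis) for each tested gene of 9 lists, with the number tested in brackets. Black lines are list medians and the grey band holds the middle 50% of all genes tested; the 10 genes have a median of 0.04 and elastolytic proteases of 0.45.

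Markers of the cells that make elastic fibers were read in the same comparison, and none passed the threshold. Of 10 smooth muscle markers 2 had a positive and 8 a negative log2 fold change over both diets (median -0.10), with a summed level of 611 to 845 CPM in control mice and of 527 to 927 CPM in the COPD mice model. Of 15 fibroblast markers 7 were higher and 8 lower, with a median of -0.06, and their summed level was 5955 to 7191 CPM in control mice and 5171 to 6992 CPM in the COPD mice model. Neither list had a gene called by edgeR's quasi-likelihood test, DESeq2 or the exact test (0 each). An unadjusted p under 0.05 was found for 3 smooth muscle markers, all lower, and for 7 fibroblast markers, beside 10.4% of all genes. Of the latter, Inmt (0.48), Meox2 (0.41) and Tcf21 (0.33) were higher and Dpt (-0.43), Col13a1 (-0.43), Limch1 (-0.39) and Pdgfra lower. Pdgfra, the receptor of alveolar fibroblasts and myofibroblast precursors, was at 398 to 540 CPM in control mice and at 288 to 423 CPM in the COPD mice model (log2 fold change -0.54, SE 0.14, adjusted p = 0.188, edgeR). The smooth muscle gene Cnn1, calponin 1, was at 27.1 to 40.03 CPM and at 12.5 to 26.7 CPM (-0.86, SE 0.23, adjusted p = 0.203, edgeR), without overlap. These genes were chosen after their values were seen. Without COPD control-diet replicate 1, 6 smooth muscle markers were higher and 4 lower, and without replicate 2 all 10 were lower. For fibroblast markers these counts were 7 higher and 8 lower, and 4 higher and 11 lower. The part of either cell type in the levels of Eln, Fbn1 or Mfap5 was not tested.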

How the data were processed

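Whole-number read counts per Ensembl gene, 1 table per library, were used as the authors deposited them, with no normalization. The submitters' processing notes name mm10 (GRCm38), HISAT2 and edgeR. Their versions, how reads were counted (program, annotation, strand) and what was done with multiply mapped reads are not given in the sources used here, and such reads could change the counts of overlapping genes. Of 52636 identifiers 52489 matched GENCODE M21, which supplied symbols, positions and exon lengths. The main test was edgeR's quasi-likelihood test (version 4.0.16, R 4.3.3, filterByExpr, minimum count 10 and total 15, TMM, 1 mean per group, glmQLFit and glmQLFTest over all 8 libraries), with the study's thresholds, an adjusted p under 0.05 and a log2 fold change beyond 1. With 2 against 2 libraries an exact permutation test cannot go below p = 0.333, and none was used. Intervals of folds are 95% intervals from the fit. The code was tested on simulated data. Replicates differed beyond counting noise (variance ratio 3.47 to 27.3), so each library counted once. The genes and lists were chosen with earlier results of these data known. The genes named by rule are the 10 of the set, listed elastic fiber genes with an unadjusted p under 0.05, and the 5 genes most like Eln or the set. Genes named from the other lists had an unadjusted p under 0.05 over both diets and were picked after the values were seen. The alternatives were DESeq2 1.42.0, the exact test, other scaling and filters, the adjusted p alone, only the groups compared and a replicate block. A length and GC correction (limma 3.58.1 was loaded by edgeR) and leaving out each library were also used. Leaving out either COPD control-diet library from the gene-pair ratios and the list counts was chosen after seeing the data. The values of 1 leukocyte marker are not reported here.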

Additional observations from a re-analysis of the deposited data

How the results depend on the processing

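Each comparison was recomputed under 10 other settings (fewer where a setting does not apply) and with each of its libraries left out, where a group of 1 library is assumed to vary like the others. Beside the values named here, 479 of 490 values of single genes kept their sign and side of the threshold under the other settings, and 198 of 240 did so with 1 library left out. These totals leave out the difference of the TJ-41 effect. The setting with the adjusted p alone as threshold reuses the main fit, so no sign could change there. The cause of each change was not tested. The number of genes called moved from 0 to 1 on TJ-41 when only the 2 groups compared were fitted (Mfap5), and from 0 to 1 over both diets with DESeq2, the exact test or all genes with at least 1 count (Mfap5 each time). With the replicate block, called genes stayed at 0 in all 6 comparisons, and the diet log2 fold change of Eln in COPD mice turned from -0.07 to 0.072. Same-numbered libraries did not deviate together (correlations of -0.225 to 0.0861), and the numbers were not used as pairs in the main fit. Whether libraries of the same number shared a batch was not tested. Scaling by library size alone gave -0.018 for Fbln5 on the control diet and 0.014 for Eln under TJ-41 in COPD mice. The length and GC correction gave 0.013 for Ltbp4 on the control diet, -0.16 for Loxl1 and -0.14 for Emilin1 on TJ-41, and 0.096 for Mfap4 under TJ-41 in control mice. The exact test cannot give the difference of the TJ-41 effect.

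With 1 library left out, called genes ranged from 0 to 2 on the control diet, 0 to 1 over both diets, 0 to 1 for TJ-41 in COPD mice and 0 to 1 for the difference of the TJ-41 effect (Loxl1, 1.82, adjusted p = 0.0366, edgeR), each time through COPD control-diet replicate 1 or 2. The log2 fold change on the control diet then ranged from -1.92 to -0.22 for Eln, -1.10 to -0.17 for Fbn1, -0.29 to 0.31 for Fbln5, -0.37 to 0.76 for Efemp2, -0.48 to 0.038 for Lox, -1.64 to 0.42 for Loxl1, -0.49 to 0.62 for Mfap4, -0.15 to 1.58 for Mfap5, -0.94 to 0.15 for Emilin1 and -0.62 to 0.45 for Ltbp4. Over both diets it ranged from -1.20 to -0.35 for Eln, 0.46 to 1.32 for Mfap5, 0.061 to 0.63 for Efemp2, -0.84 to -0.37 for Fbn1, -0.011 to 0.28 for Fbln5, -0.73 to 0.30 for Loxl1, -0.069 to 0.48 for Mfap4, -0.39 to 0.15 for Emilin1 and -0.14 to 0.39 for Ltbp4. For TJ-41 in control mice it ranged from -0.21 to 0.72 for Fbn1, -0.15 to 0.010 for Fbln5, -0.32 to 0.17 for Lox, -0.082 to 0.053 for Mfap4 and -0.35 to 0.56 for Ltbp4. For TJ-41 in COPD mice it ranged from -0.68 to 1.02 for Eln, -0.12 to 0.47 for Fbln5, -0.59 to 0.54 for Efemp2, -0.46 to 0.059 for Lox, -0.61 to 1.45 for Loxl1, -0.30 to 0.82 for Mfap4, -0.79 to 0.95 for Mfap5 and -0.24 to 0.85 for Emilin1. Over all genes, called genes numbered 91 over both diets, 249 with DESeq2, 359 with the exact test, 278 with all genes with at least 1 count, 873 without COPD control-diet replicate 1 and 214 without replicate 2. On the control diet they numbered 25, 174 with DESeq2, 210 with the exact test, 1343 without replicate 1 and 140 without replicate 2. On TJ-41 they numbered 16, 125 with DESeq2, 137 with the exact test and 248 with only the 2 groups compared. With 2 libraries a group, differences of the size of the replicate spread may have gone undetected, and the power for them was not computed.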

Other observations

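Outside the set, the genes whose log2 CPM over the 8 libraries was most like that of Eln, among genes that averaged at least 5 CPM, were Adamts8, a secreted metalloproteinase of the ADAMTS family (Pearson's r 0.962), Med24, a subunit of the Mediator complex (0.961), Gpr153 (0.959), Fam189a2 (0.959) and Impdh1, an enzyme of guanine nucleotide synthesis (0.954). Over both diets the log2 fold change of the COPD mice model was -0.41 for Adamts8, -0.19 for Med24, -0.46 for Gpr153, -0.25 for Fam189a2 and -0.15 for Impdh1. Within the set, Emilin1 ranked 105 and Loxl1 124 in likeness to Eln among 14048 genes, while Mfap5 ranked 6379. The average standardized level of the 10 genes ran from -1.54 in COPD control-diet replicate 1 to 1.02 in replicate 2, with the other 6 libraries between -0.21 and 0.44. The genes most like this average were Lrrc14 (Pearson's r 0.995), Gatad2a (0.985), Fzd2, a Wnt receptor (0.981), Gm23374 (0.975) and Fbxl19 (0.974). These 8 values share 2 libraries that stand far apart, and the likeness is given as a description with no test.

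A pair of marker lists, picked after the values were seen, was unlike between the diets. Cardiac muscle markers were lower in the COPD mice model for 9 of 9 genes tested on TJ-41 and higher for 8 of 9 on the control diet, and their summed level ran from 278 CPM to 728 CPM over the 8 libraries. Mesothelial markers mark cells of the pleura, where elastic fibers also lie. They were higher for 7 of 7 on TJ-41 and lower for 5 of 7 on the control diet. On the control diet their summed level was 302 and 278 CPM in control mice and 165 and 366 CPM in the COPD mice model. The COPD libraries thus lay on either side of the control libraries. Over both diets their median was 0.20 without COPD control-diet replicate 1 and -0.27 without replicate 2. For cardiac markers it was 0.03 and -0.07. The test of the difference, COPD mice minus control mice in the TJ-41 effect, gave lower values for 9 of 9 cardiac markers, with a median of -1.18 on the log2 scale, and higher values for 7 of 7 mesothelial markers, with a median of 0.72. Of these, 5 cardiac and 1 mesothelial marker had an unadjusted p under 0.05, beside 3.27% of all genes, and edgeR called 0 in either list.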
